A study of Mus musculus with 6 samples.

Results

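The 33 genes described here serve the red cell lineage of the bone marrow, and the globins are not among them. They were chosen by name, and all 33 were found among the 55401 gene identifiers of the count tables through GENCODE M21. By role they are 7 enzymes of heme synthesis, 3 transporters of iron and of mitochondrial substrates, 6 proteins of the red cell membrane skeleton and its anchors, 5 blood group and Rh complex proteins, 6 regulators, of which *Epor* is the erythropoietin receptor and the rest are nuclear factors, and 6 enzymes and maturation factors of late red cells. Their RNA was measured in whole tibias of 3 Atrx-cKO mice (*Osterix-Cre; Atrxf/y*) and 3 control mice (*Atrxf/y*), males of 8 weeks of age, as 3 polyA-selected libraries per genotype, each taken here as 1 mouse. Both genotypes carry the floxed *Atrx* allele, so they differ in the transgene and in what it recombines, and no library analysed here comes from mice that carry the transgene alone. The transgene is a Tet-off driver under *Osterix* (*Sp7*) control that is active in preosteoblasts, and doxycycline kept it silent in the colony until 3 weeks of age. The design addresses what loss of *Atrx* in bone-forming cells does to the RNA of the bone, which here includes its marrow.

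Red cells arise in marrow from progenitors that respond to erythropoietin and then, under regulators such as GATA1, TAL1 and KLF1, switch on the genes for heme, hemoglobin and the red cell membrane before they lose their nucleus. Heme is built from glycine and succinyl-CoA in a chain of enzymes that begins and ends in the mitochondrion, and the membrane is held in shape by a spectrin network tied to the anion exchanger band 3 through ankyrin. In people, inherited loss of *ATRX* lowers alpha globin and gives the alpha thalassemia for which the syndrome is named.

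Each library held between 50977777 and 70571655 reads assigned to genes. Osteoblast and osteocyte markers summed to between 109718 and 186067 CPM (counts scaled by library size after TMM normalization, the unit of all levels here) and none of the 10 was at 0, which is what bone tissue should show. The libraries differed in what else they held. Control replicate 3 carried 11219 CPM of 10 skeletal muscle markers against 684 to 2375 CPM in the other 5 libraries, and control replicate 1 had the lowest summed level of osteoblast and osteocyte markers. The targeted gene *Atrx* had 153, 166 and 171 CPM in Atrx-cKO replicates 1, 2 and 3 and 174, 166 and 165 CPM in control replicates 1, 2 and 3. A count over the whole gene in a tissue of many cell types does not single out the floxed part or the targeted cells, so it does not check the labels. In bulk RNA, fewer cells of a type and less RNA per cell cannot be told apart. Every one of the 33 genes was expressed well above the limit of counting, from 209 counts (*Icam4*) to 38648 counts (*Slc4a1*) in a library, and all passed the filter on low counts.

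Red cell promoters are known for the binding sites of GATA factors and of KLF1, a factor of CACCC boxes. RefSeq promoter windows on GRCm38.p6 were found for 26 of the 33 genes (not for *Fech*, *Ank1*, *Car1*, *Xpo7*, *Slc25a37*, *Nfe2* and *Slc4a1*), and the 250 bases before each start were searched on both strands for the GATA letters (AGATAA and its variant TGATAA, and those ending in G, AGATAG as well as TGATAG) and for CCNCNCCC. The GATA letters and CCNCNCCC share no bases in the windows shown. GATA letters stood in a window of 17 of the 26 genes, 65.4%, against 29.7% of all 27025 genes with a window. CCNCNCCC stood in 15 of the 26, 57.7%, against 48.5% of all genes, and both stood in the same window for 6 genes, 23.1%, against 9.43%. The windows below belong, in each role group, to the gene with the widest spread among the controls out of those with 1 window, so that the sequence can be read beside the values. Capitals mark the letters of either motif, and each window runs 5′ to 3′ along the gene's strand toward its RefSeq start.
Alas2 (chrX:150547167-150547416, plus strand): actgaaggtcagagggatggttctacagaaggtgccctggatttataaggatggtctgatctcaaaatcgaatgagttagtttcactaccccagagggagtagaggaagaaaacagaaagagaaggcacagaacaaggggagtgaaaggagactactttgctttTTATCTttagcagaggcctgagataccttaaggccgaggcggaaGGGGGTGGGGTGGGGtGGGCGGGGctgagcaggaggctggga
Slc25a38 (chr9:120110132-120110381, plus strand): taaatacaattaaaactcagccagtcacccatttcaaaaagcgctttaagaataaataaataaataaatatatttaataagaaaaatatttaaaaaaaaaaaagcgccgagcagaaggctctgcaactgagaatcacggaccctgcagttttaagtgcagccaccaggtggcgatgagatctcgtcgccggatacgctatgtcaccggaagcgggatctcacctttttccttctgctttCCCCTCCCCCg
Epb42 (chr2:121036878-121037127, minus strand): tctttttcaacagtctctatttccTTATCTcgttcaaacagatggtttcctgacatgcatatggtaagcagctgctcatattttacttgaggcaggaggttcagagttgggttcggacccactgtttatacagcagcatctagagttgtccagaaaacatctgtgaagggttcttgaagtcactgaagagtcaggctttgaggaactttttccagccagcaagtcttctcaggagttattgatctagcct
Rhag (chr17:40810899-40811148, plus strand): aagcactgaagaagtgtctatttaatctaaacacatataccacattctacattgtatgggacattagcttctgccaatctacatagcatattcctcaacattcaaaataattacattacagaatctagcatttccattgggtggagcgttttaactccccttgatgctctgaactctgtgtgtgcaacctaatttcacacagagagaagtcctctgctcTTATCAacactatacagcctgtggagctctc
Klf1 (chr8:84901732-84901981, plus strand): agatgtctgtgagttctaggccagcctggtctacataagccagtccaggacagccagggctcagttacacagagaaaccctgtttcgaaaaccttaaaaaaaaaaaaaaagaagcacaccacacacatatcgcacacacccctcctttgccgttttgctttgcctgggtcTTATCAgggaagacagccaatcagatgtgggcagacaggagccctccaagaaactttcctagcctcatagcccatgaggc
Trim10 (chr17:36869324-36869573, plus strand): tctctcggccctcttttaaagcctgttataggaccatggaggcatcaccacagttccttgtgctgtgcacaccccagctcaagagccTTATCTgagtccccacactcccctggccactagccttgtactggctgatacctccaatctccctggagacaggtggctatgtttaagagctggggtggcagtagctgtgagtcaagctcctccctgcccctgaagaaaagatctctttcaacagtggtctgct
Read in the printed direction, the first base of the GATA letters lies 86 bases before the RefSeq start of *Alas2*, 226 before that of *Epb42*, 31 before *Rhag*, 80 before *Klf1* and 163 before *Trim10*. The RefSeq start is not always the GENCODE start used for gene coordinates here. The windows of *Alas2*, *Slc25a38*, *Rhag* and *Klf1* run past the GENCODE start into the gene, and that of *Epb42* does so for most of its length. The window of *Slc25a38* holds no GATA letters and 2 matches to CCNCNCCC, and that of *Alas2* holds 4 such matches. A match is a description of the sequence and not a measured binding site.

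None of the 33 genes differed between the genotypes by more than the spread among the mice. Of the 33, 0 had an adjusted p under 0.05 in the quasi-likelihood test of edgeR, adjusted by Benjamini-Hochberg over all 20636 tested genes, of which 0.0145% passed in either direction. At an unadjusted p under 0.05, 0 of the 33 were higher (1.59% of all genes tested) and 0 lower (2.05%), and DESeq2 likewise gave 0 of the 33 an adjusted p under 0.05 (0.142% of the genes it tested). The log2 fold changes, the fitted log2 ratios of Atrx-cKO to control, ran from -0.23 for *Ank1* to 0.20 for *Nfe2*, with a median of 0.011, beside 0.0050 for all tested genes. Of the 33, 17 were above 0 and 16 below, and 51.2% of all tested genes were above 0. Their standard errors had a median of 0.23 on the log2 scale, wider than the median of 0.17 over all genes. Summed over the 33 genes, the level was 3220 ± 314 CPM (SD, n = 3) in Atrx-cKO and 3243 ± 1124 CPM (SD, n = 3) in control tibias.

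**Figure D1:**
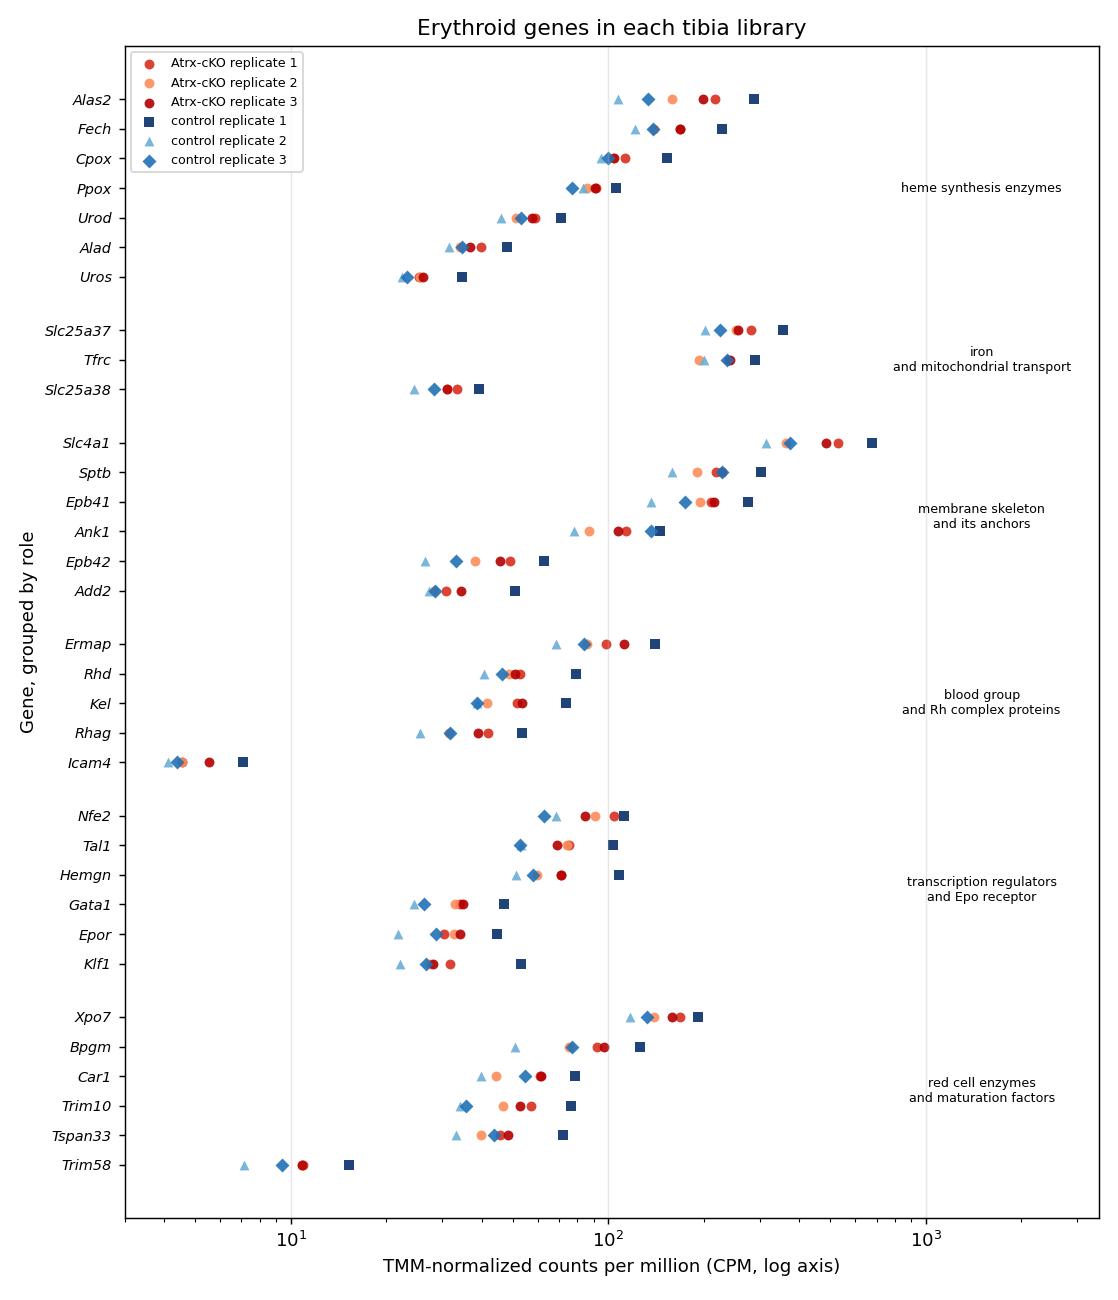
Level of each of the 33 erythroid genes in each library, as TMM-normalized CPM on a log axis, with genes grouped by role and 1 point per library. Control replicate 1 (dark square) is the highest point in all 33 rows, and control replicate 2 (triangle) is the lowest in 29.

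The libraries kept nearly the same extremes from gene to gene. Control replicate 1 had the highest level of the 6 libraries for 33 of the 33 genes (15.1% of all tested genes), and control replicate 2 the lowest for 29 (15.2%). For 32 of the 33 genes all Atrx-cKO values fell between the lowest and the highest control, where 23.9% of all tested genes do so. The groups overlapped for all 33, while 8.31% of tested genes had groups that did not overlap. Because the genes move together from mouse to mouse, the 33 genes are not 33 separate observations of this order. In summed level the controls stood at 4513, 2376 and 2840 CPM in replicates 1, 2 and 3, and the Atrx-cKO libraries at 3452, 2863 and 3345 CPM. The highest control was thus 1.90 times the lowest, and the highest Atrx-cKO library 1.21 times the lowest.

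Among the heme synthesis enzymes, the most variable was *Alas2* (ENSMUSG00000025270, chrX:150547375-150570638 of GRCm38), which encodes the erythroid form of the enzyme of the first step. It had 288, 107 and 134 CPM in control replicates 1, 2 and 3 and 216, 159 and 199 CPM in Atrx-cKO replicates 1, 2 and 3. The controls thus enclosed all Atrx-cKO values, with a highest level 2.68 times the lowest against 1.36 times in Atrx-cKO. The log2 ratio was 0.12 ± 0.34 (SE, adjusted p = 0.994). *Fech*, whose ferrochelatase places iron in the ring at the last step, had 228, 121 and 139 CPM in the controls and 168, 139 and 169 CPM in Atrx-cKO. Its log2 ratio was -0.036 ± 0.23 (SE, adjusted p = 0.997). *Cpox*, coproporphyrinogen oxidase, had 153, 95.2 and 100.2 CPM in the controls and 113, 104 and 104 CPM in Atrx-cKO, with a log2 ratio of -0.12 ± 0.18 (SE, adjusted p = 0.992).

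Apart from *Alas2*, the heme enzymes of the set serve all cells, not red cells alone. *Alad*, *Uros* and *Urod*, which build and trim the ring, differed 1.53-fold, 1.55-fold and 1.55-fold between the highest and lowest control. *Ppox*, protoporphyrinogen oxidase, had the narrowest range among controls of all 33 genes, with 106, 83.4 and 77.0 CPM in the controls and 91.7, 85.7 and 90.8 CPM in Atrx-cKO, a ratio of 1.38 among controls. Its log2 ratio was 0.011 ± 0.12 (SE, adjusted p = 0.998). Of the 7 enzymes, 2 had a log2 fold change above 0 and 5 below, from -0.12 to 0.12. *Uros* overlaps *Bccip* and *Ppox* overlaps *B4galt3* on the opposite strand, with mean counts of 2678 against 1511 and 2696 against 5145, partner first, so that part of their reads may belong to the partner.

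Among the transporters, control replicate 1 was again the highest library. *Slc25a37*, mitoferrin 1, which carries iron into the mitochondrion, had 355, 202 and 225 CPM in the controls and 281, 253 and 257 CPM in Atrx-cKO, a log2 ratio of 0.016 ± 0.20 (SE, adjusted p = 0.998). *Slc25a38*, the mitochondrial glycine carrier, had 39.2, 24.6 and 28.3 CPM in the controls and 33.4, 31.1 and 31.1 CPM in Atrx-cKO. *Tfrc*, the transferrin receptor that brings iron into dividing cells of many kinds, had 289.7, 200.3 and 237 CPM in the controls and 239, 193 and 242 CPM in Atrx-cKO. It was the gene of the 33 whose lowest library was an Atrx-cKO library, replicate 2. Its log2 ratio was -0.11 ± 0.15 (SE, adjusted p = 0.992), and the highest control was 1.45 times the lowest.

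In the membrane group, the controls again enclosed the Atrx-cKO values. *Slc4a1* (ENSMUSG00000006574, chr11:102348824-102366203), band 3, had 677, 314 and 375 CPM in the controls and 529, 363 and 486 CPM in Atrx-cKO. Control replicate 1 was above and control replicate 2 below every Atrx-cKO value. The means were 455 ± 195 CPM (SD, n = 3) in control and 459 ± 85.8 CPM (SD, n = 3) in Atrx-cKO, a log2 ratio of 0.012 ± 0.29 (SE, adjusted p = 0.999). *Epb42*, protein 4.2, which binds band 3 from within, had 63.0, 26.5 and 33.1 CPM in the controls and 49.2, 38.1 and 45.7 CPM in Atrx-cKO, a log2 ratio of 0.12 ± 0.30 (SE, adjusted p = 0.994). *Epb41*, protein 4.1, which joins spectrin to actin, had 275, 136 and 174 CPM in the controls and 211, 195 and 216 CPM in Atrx-cKO. *Add2*, beta adducin, a cap of the actin filaments, had 50.8, 27.3 and 28.4 CPM in the controls and 30.9, 28.2 and 34.4 CPM in Atrx-cKO, with a log2 ratio of -0.19 ± 0.23 (SE, adjusted p = 0.992).

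Ankyrin and beta spectrin complete the membrane group. *Ank1* (ENSMUSG00000031543, chr8:22974844-23150497) had 146, 78.2 and 137 CPM in the controls and 114, 86.9 and 107 CPM in Atrx-cKO. Control replicate 3 was thus 1.75 times control replicate 2 for *Ank1*, the largest such ratio of the 33 genes, against 1.20 times for *Slc4a1*. *Sptb*, beta spectrin, had 304, 159 and 229 CPM in the controls and 219, 190.3 and 229 CPM in Atrx-cKO, and the same ratio was 1.44. Control replicate 3 of *Sptb* was thus level with Atrx-cKO replicate 3. The ratio was also high for genes of other roles, at 1.51 for *Bpgm* and 1.38 for *Car1*. *Ank1* and *Sptb* also have products in skeletal muscle, and control replicate 3 was the library with 11219 CPM of muscle markers. The part of muscle RNA in these 2 values was not tested. The log2 fold change was -0.23 for *Ank1* (standard error 0.23, adjusted p = 0.992) and -0.12 for *Sptb* (standard error 0.21, adjusted p = 0.992).

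The blood group and Rh genes had the same extreme libraries as band 3. *Ermap*, which carries the Scianna antigens, had 140.4, 68.4 and 83.7 CPM in the controls and 98.6, 85.5 and 112 CPM in Atrx-cKO, a log2 ratio of 0.020 ± 0.25 (SE, adjusted p = 0.998). *Rhd*, of the Rh family, had 79.5, 40.5 and 46.5 CPM in the controls and 52.7, 48.9 and 51.1 CPM in Atrx-cKO, a log2 ratio of -0.13 ± 0.23 (SE, adjusted p = 0.992). *Rhag*, which brings the Rh proteins to the membrane, had 53.6, 25.5 and 31.7 CPM in the controls and 41.9, 31.5 and 38.8 CPM in Atrx-cKO. *Kel*, the Kell glycoprotein, was at 73.5, 38.5 and 38.7 CPM in the controls and at 51.8, 41.7 and 53.7 CPM in Atrx-cKO. In these 4 genes the highest control was 1.91 to 2.10 times the lowest. *Icam4*, an adhesion protein of red cells, had the fewest counts of the set, at 7.10, 4.11 and 4.39 CPM in the controls and 4.57, 4.54 and 5.55 CPM in Atrx-cKO. The antisense gene *Gm47079*, which overlaps it, had a mean of 611 counts against 290 for *Icam4*, so the level of *Icam4* is uncertain. In all, 9 of the 33 genes overlap a gene with at least 5% of their own mean count, 8 of them on the opposite strand only.

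Among the regulators, *Klf1* (ENSMUSG00000054191, chr8:84901928-84905291), the activator of beta globin and of many red cell genes, had the widest range. It had 53.2, 22.04 and 26.6 CPM in the controls and 31.7, 27.5 and 28.1 CPM in Atrx-cKO. Control replicate 1 stood apart from the other 5 libraries, at 2.19 times the mean of the other controls. The log2 ratio was -0.22 ± 0.30 (SE, adjusted p = 0.992). *Gata1*, the master regulator of red cells and megakaryocytes, had 46.9, 24.4 and 26.3 CPM in the controls and 34.2, 32.98 and 35.0 CPM in Atrx-cKO, a log2 ratio of 0.067 ± 0.23 (SE, adjusted p = 0.994). *Epor*, the receptor for erythropoietin, had 44.6, 21.9 and 28.6 CPM in the controls and 30.5, 32.7 and 34.3 CPM in Atrx-cKO. *Hemgn*, a nuclear protein downstream of *Gata1*, had 109, 51.4 and 58.2 CPM in the controls and 71.0, 59.9 and 71.1 CPM in Atrx-cKO.

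*Nfe2* and *Tal1* are shared with megakaryocytes. *Nfe2*, a factor that acts on globin and platelet genes, had 112, 68.4 and 63.0 CPM in the controls and 105, 90.8 and 84.5 CPM in Atrx-cKO. All Atrx-cKO libraries were above control replicates 2 and 3 and below control replicate 1, and the log2 ratio of 0.20 ± 0.21 (SE, adjusted p = 0.992) was the highest of the 33. *Tal1* had 103, 53.3 and 52.7 CPM in the controls and 75.5, 74.3 and 69.2 CPM in Atrx-cKO, a log2 ratio of 0.064 ± 0.25 (SE, adjusted p = 0.994). For both genes and for *Ppox*, 3 of the 33, control replicate 3 was the lowest library, as it was for 20.6% of all tested genes. The 10 megakaryocyte and platelet markers, of which 9 passed the filter on low counts, were arranged in the same way, with 2402 to 2470 CPM in Atrx-cKO and 2817, 1558 and 1674 CPM in control replicates 1, 2 and 3. Their part in the values of *Nfe2* and *Tal1* was not tested.

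The late genes also had control replicates 1 and 2 as their highest and lowest libraries. *Xpo7*, a nuclear export factor linked to the loss of the nucleus, had 193, 117 and 132 CPM in the controls and 168, 139.7 and 159 CPM in Atrx-cKO, a log2 ratio of 0.079 ± 0.18 (SE, adjusted p = 0.994). *Bpgm*, whose product makes the bisphosphoglycerate that lowers oxygen affinity, had 126, 51.1 and 76.9 CPM in the controls and 92.1, 75.2 and 97.1 CPM in Atrx-cKO, a log2 ratio of 0.058 ± 0.29 (SE, adjusted p = 0.997). *Car1*, a carbonic anhydrase, had 78.6, 39.8 and 54.8 CPM in the controls and 61.1, 44.4 and 61.5 CPM in Atrx-cKO. These ranges among controls were 1.65-fold, 2.47-fold and 1.97-fold. *Trim10*, a ubiquitin ligase of red cell precursors, had 76.5, 34.2 and 35.6 CPM in the controls and 57.1, 46.5 and 52.7 CPM in Atrx-cKO. *Trim58*, another ubiquitin ligase, had 15.3, 7.15 and 9.37 CPM in the controls, while its Atrx-cKO values of 10.9, 10.9 and 10.9 CPM lay closer together than those of any other gene of the set. *Tspan33*, a tetraspanin of red cell precursors, had 72.3, 33.3 and 43.8 CPM in the controls and 45.6, 39.9 and 48.2 CPM in Atrx-cKO.

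Per kilobase of annotated exon, the 33 genes spanned a wide range of levels. *Slc4a1* led at 93.5 CPM per kilobase on average over the 6 libraries, followed by *Alas2* at 76.6, *Car1* at 45.4, *Slc25a37* at 43.6 and *Tfrc* at 37.7. The weakest per kilobase were *Add2* at 3.29, *Icam4* at 4.54 and *Trim58* at 4.91. The step from *Slc4a1* to *Alas2*, and that from *Alas2* to *Car1*, was smaller than the range of either gene among the controls. The regulators lay between 13.7 CPM per kilobase for *Gata1* and 29.2 for *Nfe2*.

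Spread within genotype was then compared on the log2 scale, with 0.5 CPM added before the logarithm. The standard deviation over the 3 controls had a median of 0.51 over the 33 genes, against 0.13 over the 12505 tested genes within the same range of mean CPM. Over the 3 Atrx-cKO libraries the medians were 0.14 and 0.11. The control value exceeded the Atrx-cKO value for 33 of the 33 genes, as it did for 54.8% of all tested genes, and it was above 0.4 for 24 of them, as it was for 10.6% of all tested genes. The range ran from 0.24 for *Ppox* to 0.74 for *Alas2* in control, and from 0.0045 for *Trim58* to 0.28 for *Slc4a1* in Atrx-cKO. The wider control spread was not particular to these genes. The medians in control and Atrx-cKO were 0.54 and 0.062 for megakaryocyte and platelet markers and 0.54 and 0.22 for B cell markers. They were 0.78 and 0.19 for the adult globins, while neutrophil (0.28 and 0.32) and adipocyte markers (0.25 and 0.35) went the other way. Without control replicate 1 the control median of the 33 was 0.14 over the remaining controls, with no value over all genes beside it. With 3 mice a genotype these spreads are a description, and no test of their difference was made.

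**Figure D2:**
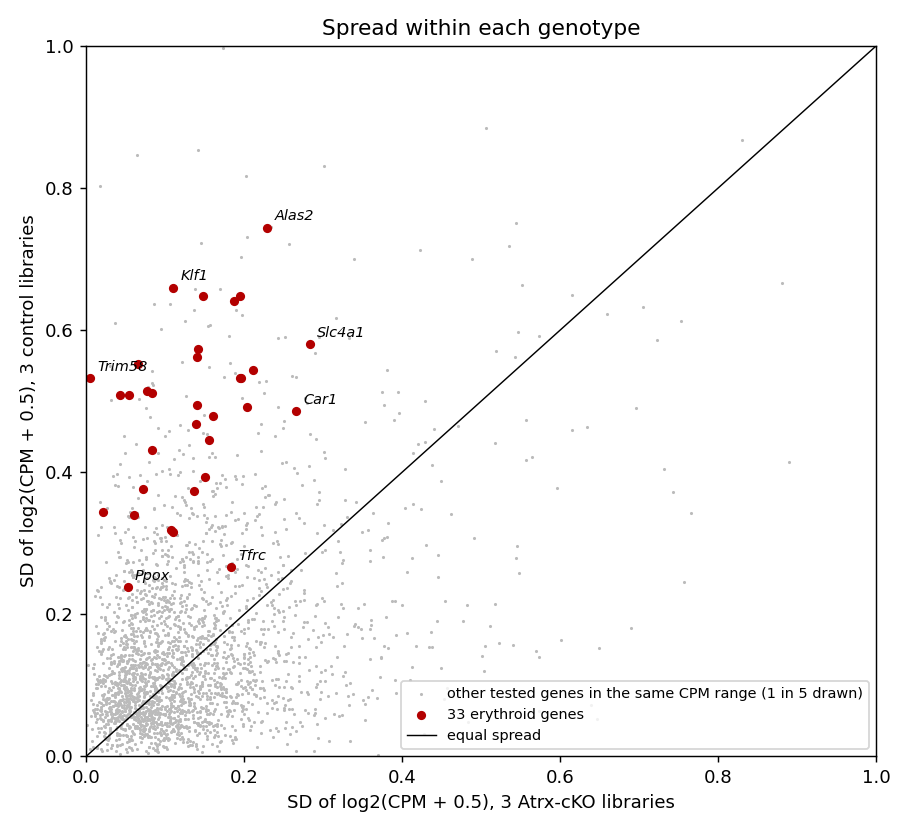
Standard deviation of log2(CPM + 0.5) over the 3 control libraries (vertical) against the 3 Atrx-cKO libraries (horizontal), with the 33 erythroid genes in red and 1 in 5 of the other tested genes of the same CPM range in gray. All 33 lie above the line of equal spread. Both axes end at 1, and gray points beyond are not shown.

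The 33 genes moved together over the 6 mice. Pearson's r of each gene's log2 level with the mean standardized level of the other 32 had a median of 0.96 over the 6 libraries and ran from 0.70 for *Ank1* to 0.99 for *Fech*. With the mean profile of all 33, r was at least 0.9 for 29 of them, as it was for 1.67% of all tested genes. The genes below 0.9 by the first measure were *Ank1*, *Nfe2* at 0.81, *Tfrc* at 0.86 and *Ppox* at 0.89. The points share their libraries and their scaling, and control replicate 1 contributes much of the range. Without it the median was 0.93 over 5 libraries and the lowest value 0.47.

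The 10 tested genes outside the set with the profile most like it, by Pearson's r with that mean profile over the 6 libraries, were *Dmtn*, *Car2*, *Hcn3*, *Aldh1a1*, *Ucp2*, *Fbxo7*, *Pidd1*, *Fryl*, *2310011J03Rik* and *Slc16a10*, with r from 0.998 down to 0.988. *Dmtn* encodes dematin, an actin bundler of the red cell skeleton, and had 66.3, 32.5 and 38.2 CPM in the controls and 45.9, 40.7 and 45.8 CPM in Atrx-cKO.

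Leaving out control replicate 1, which left 2 controls, moved the fold changes upward. It was the highest of the 6 libraries for all 33 genes, so leaving it out lowers every control mean and narrows every control range. The direction of the shift was therefore fixed in advance. The counts below only describe how far the result rests on that library. In the edgeR fit without control replicate 1, the log2 fold changes had a median of 0.30 (0.0058 over all tested genes), 32 of the 33 were above 0 (51.1% of all tested genes), and *Ank1* was the exception at -0.062. The shift was not particular to these genes. In the same fit the median was 0.74 for the adult globins and 0.68 for the megakaryocyte and platelet markers. It was 0.37 for B cell markers, 0.34 for neutrophil markers, 0.34 for cell division genes and 0.23 for macrophage markers. For the markers of muscle, osteoblasts and osteocytes, osteoclasts, chondrocytes and adipocytes it was below 0. At an unadjusted p under 0.05, 20 of the 33 were higher in Atrx-cKO, beside 4.13% of all genes tested, and 0 were lower (5.59%). After adjustment 0 passed in edgeR (0.00937% of all genes tested), where the lowest adjusted p was 0.130, for *Tal1*. In DESeq2, 6 of the 33 had an adjusted p under 0.05 and a higher level in Atrx-cKO, beside 1.11% of the genes tested. These 6 genes were *Alas2* (log2 fold change 0.67, DESeq2 adjusted p = 0.00240), *Trim10* (0.58, 0.000470), *Epb42* (0.58, 0.0158), *Nfe2* (0.51, 0.00498), *Tal1* (0.46, 0.000324) and *Gata1* (0.43, 0.00496). On simulated counts of all 6 libraries DESeq2 made 56 false calls and edgeR 8. A fit with 2 controls was not simulated, nor was a shift shared by many genes of 1 library. The 3 Atrx-cKO values were above the 2 remaining controls for 22 of the 33, where 13.7% of all tested genes are arranged so.

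Leaving out control replicate 2 moved them downward. That library was the lowest of the 6 for 29 of the 33 genes, so this direction too was largely fixed in advance. The median log2 fold change was then -0.19, 32 of the 33 were below 0 with *Nfe2* as the exception at 0.089 (50.5% of all tested genes were above 0), and 1 gene, *Ank1*, was lower at an unadjusted p under 0.05 (2.30% of all genes tested), with a log2 fold change of -0.46. An adjusted p under 0.05 was reached by 0 of the 33 in edgeR (0% of all genes tested) and in DESeq2 (0.114%). Without control replicate 3 the median was -0.10. Without Atrx-cKO replicates 1, 2 and 3 in turn, the median was -0.050, 0.035 and -0.046. The sign of the median thus depended on which libraries of either genotype entered the fit. Of the 33 genes, 15 changed sign without control replicate 1 and 16 without control replicate 2. Their fold changes over all 6 libraries lay near 0 and the genes move together, so these are not separate changes. The share of all tested genes that changed sign is not given here.

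**Figure D3:**
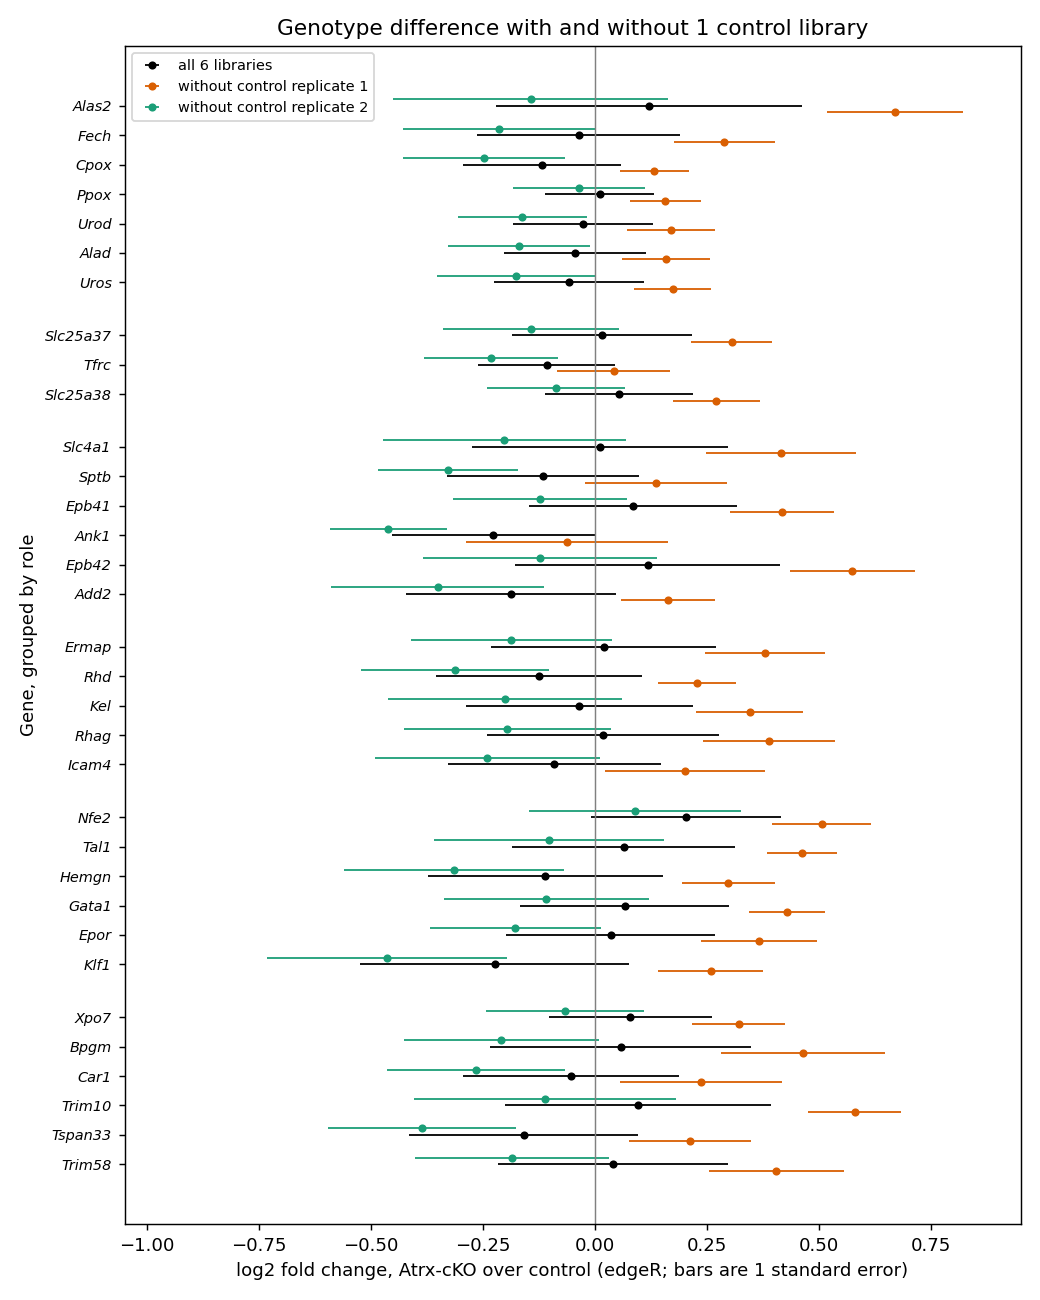
Log2 fold change of Atrx-cKO over control for the 33 erythroid genes, with bars of 1 standard error, from edgeR fits of all 6 libraries (black), without control replicate 1 (orange) and without control replicate 2 (green). The median is 0.011 in black, 0.30 in orange and -0.19 in green.

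No other listed gene of the lineage passed the test, as was true of nearly all tested genes. Over all tested genes 0.0145% passed, a share at which lists of these sizes seldom hold a gene that passes. Of 11 further membrane genes, 17 further heme and iron genes, 15 tested regulators and erythropoietin signaling genes and 7 tested maturation genes, 0 passed in either direction, with median log2 fold changes of 0.044, -0.012, 3.8e-06 and -0.015. Of the 15 tested regulators and signaling genes, 8 were above 0 and 7 below. They ran from -0.31 for *Sox6* (standard error 0.26) to 0.93 for *Cish* (standard error 0.54). *Epo*, made mainly in kidney, was not tested, with 0 counts in all 6 libraries, which allows up to 0.0588 CPM in the shallowest. The most abundant of these lists included *Cd47*, a membrane protein that spares red cells from macrophages, at 274 CPM on average, the water channel gene *Aqp1* at 266 CPM, and the ferritin genes *Ftl1* and *Fth1*, which store iron, at 850.1 and 672 CPM. Ferritin, which every cell makes, had log2 fold changes of -0.012 and 0.014. Among the regulators, *Ldb1*, a partner of TAL1, and *Ikzf1*, a factor of blood cells at large, averaged 140.3 and 134 CPM, with log2 fold changes of -0.041 and 0.16. *Prdx2*, which removes peroxide, averaged 184 CPM with a log2 fold change of -0.063. *Car2*, another carbonic anhydrase, had 389, 179 and 213 CPM in the controls and 263, 224 and 247 CPM in Atrx-cKO. Control replicate 1 was the highest of the 6 libraries for 7 of the 7 tested maturation genes and 8 of the 11 membrane genes. It was the highest for 9 of the 17 heme and iron genes and 9 of the 15 tested regulators and signaling genes. Over all tested genes the share was 15.1%.

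The adult globins *Hba-a1*, *Hba-a2*, *Hbb-bs* and *Hbb-bt* summed to 5048, 1888 and 2355 CPM in control replicates 1, 2 and 3 and to 3981, 3117 and 3447 CPM in Atrx-cKO replicates 1, 2 and 3. Of the 4, 0 had an adjusted p under 0.05 (0.0145% of all tested genes). The most abundant, *Hbb-bs* and *Hba-a1*, had log2 fold changes of 0.22 and 0.17. The sum of the 33 genes was 1.26 and 1.21 times that of the globins in control replicates 2 and 3 and 0.867 to 0.970 times in the other 4 libraries. With the globin level as a covariate in the edgeR fit, an alternative added after the data were seen, 0 of the 33 passed (0.00485% of all genes tested), 6 were lower at an unadjusted p under 0.05 (1.65% of all genes tested), and the median log2 fold change was -0.15.

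Markers of the other cells of the tibia are set beside these values. B cell markers summed to 386, 210 and 304 CPM in control replicates 1, 2 and 3 and to 277 to 393 CPM in Atrx-cKO. Cell division genes, which all dividing marrow cells express, had 1241, 864 and 838 CPM in the controls and 940 to 1270 CPM in Atrx-cKO. The summed osteoblast and osteocyte markers were lowest in control replicate 1, with 109718, 186067 and 167192 CPM in the controls and 115615 to 119268 CPM in Atrx-cKO. Most of that sum is collagen I, with 53548 CPM of *Col1a1* and 50187 CPM of *Col1a2* in control replicate 1. Not every marker of the list followed the sum. *Sost*, the sclerostin gene of osteocytes, was highest in control replicate 1, with 241, 63.8 and 64.4 CPM in the controls and 68.8 to 144 CPM in Atrx-cKO, and *Bglap*, *Bglap2*, *Ibsp* and *Sp7* were lowest in an Atrx-cKO library. Chondrocyte markers, mostly *Col2a1*, summed to 1098, 1600 and 1618 CPM in the controls and to 807 to 1177 CPM in Atrx-cKO. Neutrophil markers ranged from 7900 to 11346 CPM in control and from 9681 to 14071 CPM in Atrx-cKO, and macrophage markers from 1222 to 1457 CPM and from 1251 to 1421 CPM. Osteoclast markers ranged from 2435 to 3939 CPM in control and from 2125 to 2860 CPM in Atrx-cKO, and adipocyte markers from 400 to 531 CPM and from 485 to 619 CPM. No marker of these lists was at 0 in all 6 libraries, and 0 of their genes passed in edgeR, beside 0.0145% of all tested genes. The part of these cells in the levels of the red cell genes was not tested.

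**Figure D4:**
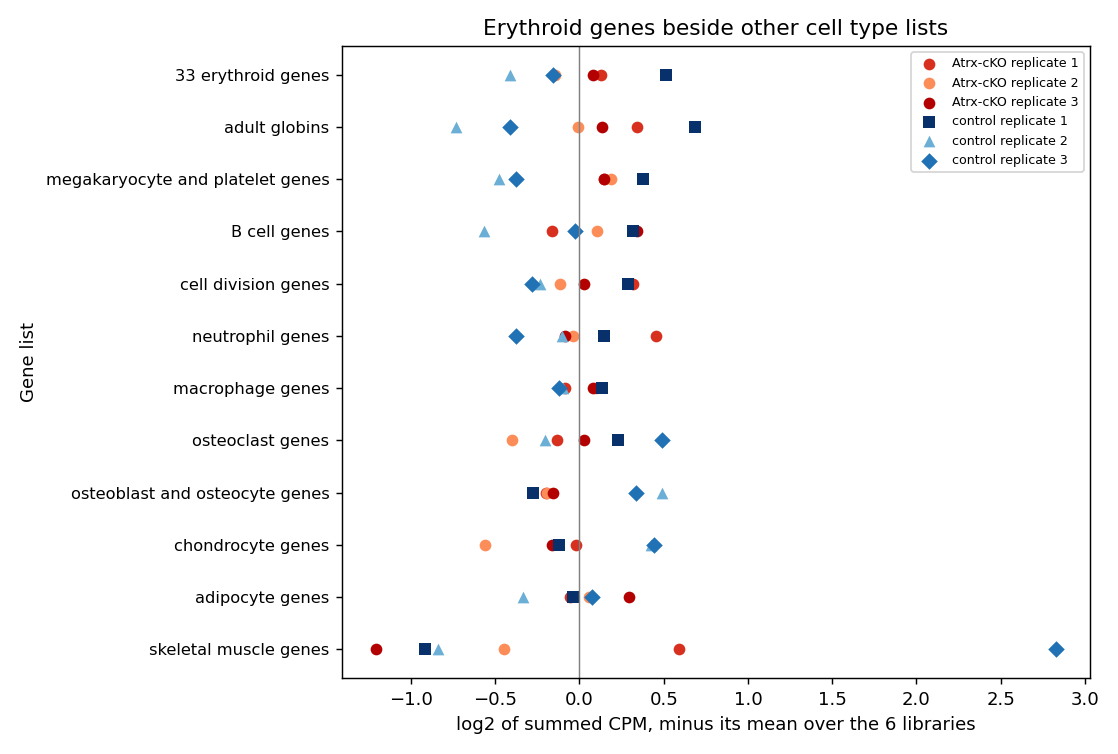
Summed level of the 33 erythroid genes, the adult globins and 10 marker lists in each library, as log2 of summed CPM minus its mean over the 6 libraries, with 1 point per library. Control replicate 1 is highest and control replicate 2 lowest for the erythroid genes, the globins and the megakaryocyte list, whereas the sum of osteoblast and osteocyte genes is lowest in control replicate 1, and skeletal muscle genes stand far out in control replicate 3.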

How the data were processed

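RNA of whole tibias was sequenced as polyA-selected, paired-end libraries by GENEWIZ. The authors deposited raw counts per Ensembl gene for each library, and the aligner and counting program are not given in the sources used here. The submitters' processing notes name GRCm38 and DESeq2. Lines that name no gene were left out of library sizes (51.6% to 52.4% of reads fell on no feature). GENCODE M21 named 55141 of 55401 rows and gave coordinates and exon lengths. *Ahsp* was not analysed here. The labels call the libraries strand specific, and whether counting used strand is not given in the sources used here, so genes that overlap on opposite strands may share reads.

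Counts were fitted with edgeR 4.0.16 in R 4.3.3 (TMM, filterByExpr, glmQLFit and glmQLFTest, genotype alone), with DESeq2 1.42.0 as an alternative. Adjusted p-values cover all tested genes, and 0.05 was the threshold. Printed CPM use TMM-scaled library sizes. Other scalings, filters, a replicate block and fits without each library were also run. DESeq2 without each library and the globin covariate were added after the data were seen. On simulated counts for 20636 genes with 200 changed, edgeR recovered 66 of 100 genes changed by 1 log2 unit and 92 of 100 changed by 2, with 8 false calls, and DESeq2 recovered 83 and 96 with 56 false calls. DESeq2 was thus less strict on these simulated counts. They drew each gene on its own from dispersions estimated by edgeR. They held no shift shared by many genes of 1 library, so they do not settle the false calls on the real libraries.

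The 33 genes and the gene lists were chosen with earlier results of these data known. Values per library were set for the 2 most abundant genes of each role group and the 5 in each direction with the lowest p, and for 2 genes per further list. The 10 most like genes outside the set were ranked by Pearson's r. Values of the other members and of *Dmtn* were added after they were seen. The sources give 3 libraries per genotype and do not state outright that each is a separate mouse, so p-values measure the spread between these libraries. Libraries of 1 genotype differed beyond sampling noise (chi-square per degree of freedom 17.1 to 149) and were all kept. Counting limits cover counting error only.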

Additional observations from a re-analysis of the deposited data

How the results depend on the processing

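Direction was not stable for most of the 33 genes, whose log2 fold changes over all 6 libraries lay near 0. Only 1 alternative gave any of them an adjusted p under 0.05, DESeq2 without control replicate 1. It gave 6 genes, all higher, beside 1.11% of the genes tested. Over the fits that left out 1 library, by edgeR and DESeq2, *Ank1* stayed below 0 and *Nfe2* above 0. The other log2 fold changes ran from -0.14 to 0.67 for *Alas2*, -0.17 to 0.16 for *Alad*, -0.18 to 0.18 for *Uros*, -0.16 to 0.17 for *Urod*, -0.25 to 0.13 for *Cpox*, -0.095 to 0.16 for *Ppox*, -0.21 to 0.29 for *Fech*, -0.23 to 0.043 for *Tfrc*, -0.14 to 0.31 for *Slc25a37*, -0.087 to 0.27 for *Slc25a38*, -0.20 to 0.42 for *Slc4a1*, -0.12 to 0.58 for *Epb42*, -0.33 to 0.14 for *Sptb*, -0.12 to 0.42 for *Epb41*, -0.35 to 0.16 for *Add2*, -0.20 to 0.39 for *Rhag*, -0.31 to 0.23 for *Rhd*, -0.21 to 0.35 for *Kel*, -0.19 to 0.38 for *Ermap*, -0.24 to 0.20 for *Icam4*, -0.46 to 0.26 for *Klf1*, -0.11 to 0.43 for *Gata1*, -0.11 to 0.46 for *Tal1*, -0.31 to 0.30 for *Hemgn*, -0.18 to 0.37 for *Epor*, -0.27 to 0.24 for *Car1*, -0.21 to 0.47 for *Bpgm*, -0.39 to 0.21 for *Tspan33*, -0.11 to 0.58 for *Trim10*, -0.18 to 0.41 for *Trim58* and -0.066 to 0.32 for *Xpo7*. In these fits, 0 to 6 of the 33 passed higher, 0 to 20 were higher and 0 to 1 lower at an unadjusted p under 0.05, and the median standard deviation over the 33 ran from 0.0609 to 0.143 in Atrx-cKO and from 0.143 to 0.659 in control. The 20 were reached without control replicate 1, beside 4.13% of all genes tested in edgeR and 5% in DESeq2. Without control replicate 2, 1 was lower, beside 2.30% and 2.28%. With library size alone in place of TMM, the sign changed for *Alad* (0.013), *Urod* (0.032), *Fech* (0.014) and *Kel* (0.012). With the globin level as a covariate, 6 of the 33 were lower at an unadjusted p under 0.05, and the sign changed for *Alas2* (-0.068), *Ppox* (-0.067), *Slc25a37* (-0.12), *Slc25a38* (-0.059), *Slc4a1* (-0.17), *Epb42* (-0.061), *Epb41* (-0.059), *Rhag* (-0.15), *Ermap* (-0.13), *Gata1* (-0.072), *Tal1* (-0.076), *Epor* (-0.094), *Bpgm* (-0.11), *Trim10* (-0.073), *Trim58* (-0.10) and *Xpo7* (-0.051). Over all genes tested with the globin covariate, 1.65% were lower at that threshold. The cause of the changes of sign was not tested.

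Over all tested genes, edgeR gave 3 higher and 0 lower. Higher calls numbered 9 with no filter on low counts, 1 with at least 10 counts in every library, 19 in DESeq2, 1 with the globin covariate and 0 to 202 without 1 library. Lower calls numbered 1 with no filter, 18 in DESeq2 and 0 to 314 without 1 library. The ranges without 1 library cover both edgeR and DESeq2. The 202 and 314 came from DESeq2 without control replicate 1, where edgeR gave 2 higher and 0 lower. When a size of 1 log2 unit was also required, higher calls numbered 1 with at least 10 counts, 10 in DESeq2, 1 with the globin covariate and 0 to 25 without 1 library, and lower calls 1 with no filter, 13 in DESeq2 and 0 to 48 without 1 library. With the replicate number as a replicate block, 0 genes were higher, with or without that limit on size, *Fech* (0.014) and *Kel* (0.026) changed sign, and no gene of the 33 passed. Same-numbered libraries did not deviate together (correlations of -0.0254, 0.0619 and -0.0707), so the numbers were not taken as pairs.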
